A study of Arabidopsis thaliana with 8 samples.

Results

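The Calvin cycle fixes carbon dioxide in the chloroplast stroma. Rubisco adds carbon dioxide to ribulose bisphosphate, the phosphoglycerate formed is phosphorylated by phosphoglycerate kinase and reduced by glyceraldehyde phosphate dehydrogenase, and the remaining enzymes rebuild the acceptor from triose phosphate. In plants the dehydrogenase, both bisphosphatases and phosphoribulokinase are switched on in the light through thioredoxins, and in darkness the small protein CP12 holds the dehydrogenase and phosphoribulokinase in an inactive complex. Apart from Rubisco, the enzymes are encoded in the nucleus and imported.

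The 10 genes described are GAPA, GAPB, PRK, SBPASE, plastid FBPase, PGK1, TKL1, FBA1, FBA2 and CP12-2 of Arabidopsis thaliana, taken by locus from 27416 loci with counts. The rule names them by their function in the cycle and uses no measured value, but the choice was made with earlier results of these data known. Ribosome profiling sequences the mRNA stretches that ribosomes protect from nuclease, so footprint counts report ribosome occupancy. Translational efficiency is the footprint level of a gene divided by its mRNA level. Footprints and mRNA were each sequenced from plants in a dark condition and in a blue light condition, with 2 libraries in each of the 4 groups. The labels name no genotype, tissue, age, light intensity or duration, and all groups share whatever these were. Whether replicates were grown separately is not stated, so p-values reflect only how far these libraries differ, which may be technical.

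The mRNA libraries held 688630 to 847469 counts, of which 250502 to 300715 were from nuclear genes outside 3 very abundant loci that had no footprints (AT1G40104, AT2G08986 and AT2G07981). The footprint libraries held 2888624 to 4919808 counts. The 10 genes together gave 399 to 1561 counts per mRNA library and 10945 to 45412 per footprint library, so their footprint values are the more precise. All 10 passed the filter on low counts in each assay. GAPB, SBPASE and CP12-2 had under 10 counts in both dark mRNA libraries and passed in mRNA through the blue-light libraries, so they had to be higher there. In bulk material, fewer cells of a type and less RNA per cell cannot be told apart. Among markers of other tissues, the summed level of 6 root genes was 112 and 117 CPM (counts scaled to library size) in dark and 105 and 105 in blue-light footprints. In those footprints 1 of 5 tested root genes was called higher and 2 were called lower, beside 20.9% and 16.9% of all genes. The summed level of 4 seed genes was 168 and 276 CPM in dark and 50.7 and 245 in blue-light footprints. For 4 guard cell genes it was 15.5 and 15.8 CPM in dark and 13.2 and 14.9 in blue-light footprints. In mRNA the root sum was 133 and 146 CPM in dark and 95.1 and 106 in blue light, the seed sum 32.9 and 49.4 against 33.3 and 53.6, and the guard cell sum 18.8 and 22.8 against 24.2 and 30.4. No marker was at 0 in all libraries of an assay, and the part of tissue make-up in the changes below was not tested.

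In blue light the footprints of all 10 genes rose, and so did the mRNA of 6 of them (edgeR, adjusted p under 0.05 by the method of Benjamini and Hochberg across the table). Among all genes tested, 37.8% were called in footprints, 20.9% higher and 16.9% lower, and 3.9% in mRNA, 2.85% higher and 1.05% lower. None of the 10 was called lower in either assay. Summed over the 10 genes, footprints rose from 3320.6 and 3539 CPM in the dark libraries to 9992 and 10001 CPM in blue light, 2.91 times the dark mean. Summed mRNA was 505 and 727 CPM in the dark libraries and 2261 and 2341 CPM in blue light, 3.74 times the dark mean. The dark mRNA libraries differed from each other by 1.44 times in this sum and the blue-light ones by 1.03 times. For each of the 10 genes, both blue-light footprint libraries lay above both dark ones, which held for 33.6% of all tested genes, with the opposite order in 33.9%. In mRNA this held for the 7 genes with at least 10 counts in a dark library, and for 22.5% of all tested genes, with the opposite order in 19.9%. It also held for GAPB, SBPASE and CP12-2, where the filter fixed the direction. The median log2 fold change of the 10 genes was 1.93 in footprints and 2.01 in mRNA, or 1.67 in mRNA over the 7 genes alone, beside medians of -0.02 and 0.03 over all genes tested.

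**Figure D1:**
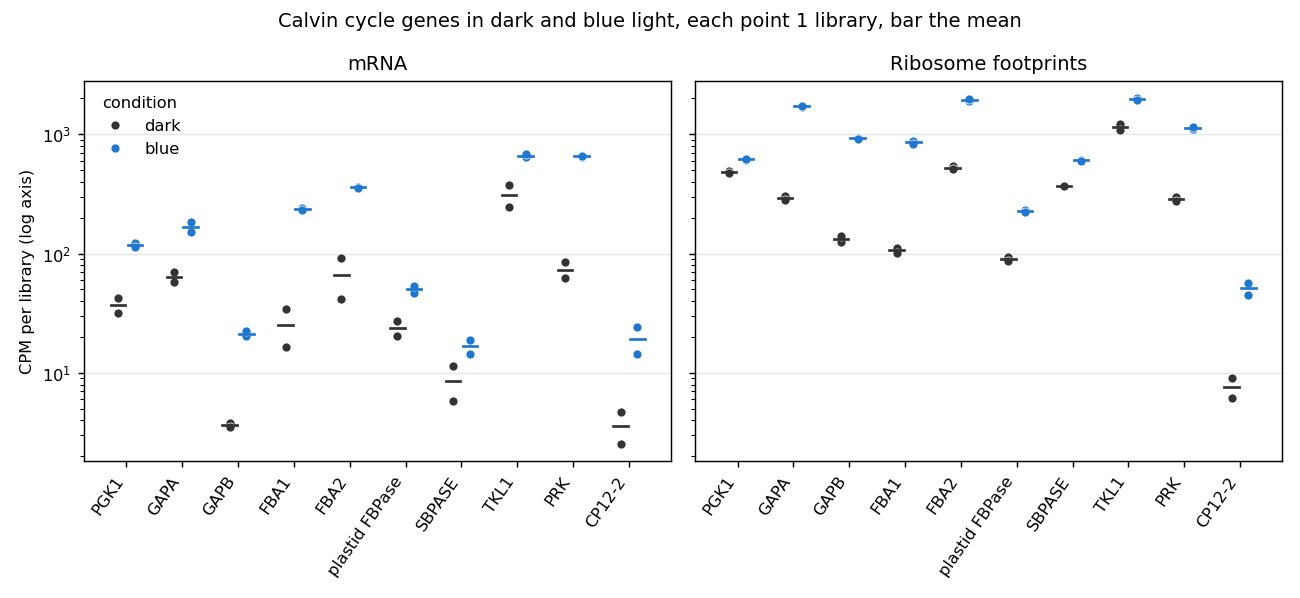
CPM of the 10 genes in each mRNA library (left) and footprint library (right) on a log axis, dark in black and blue light in blue, with bars at the mean of 2 libraries. Every blue-light point lies above both dark points of its gene, and the dark mRNA points of FBA1 and FBA2 are spread more widely than their footprint points.

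The reduction steps come first. PGK1 (AT3G12780) makes bisphosphoglycerate from the product of Rubisco. Its mRNA stood at 31.6 and 42.3 CPM in the dark libraries and at 122 and 114 CPM in blue light, 1.67 ± 0.33 higher on the log2 scale (± SE here and below, adjusted p = 0.00117). Its footprints stood at 489 and 471 CPM in the dark and at 611 and 618 CPM in blue light. The groups did not overlap in either assay, but the rise in footprints, 0.36 ± 0.07 on the log2 scale (adjusted p = 8.33e-05), or 1.28 times, was the smallest among the 10 genes, while the mRNA rose 3.17 times.

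GAPA (AT3G26650) and GAPB (AT1G42970) encode the subunits of the chloroplast glyceraldehyde phosphate dehydrogenase, which spends the NADPH made by the photosystems. GAPA footprints were 301 and 278 CPM in the dark libraries and 1700.1 and 1734 CPM in blue light. That is a log2 fold change of 2.57 ± 0.07 (adjusted p = 5.11e-22), or 5.93 times. GAPA mRNA rose less, from 69.6 and 57.5 CPM to 152 and 183 CPM, a log2 fold change of 1.40 ± 0.29 (adjusted p = 0.00252). Leaving out blue mRNA replicate 2 ended this call (log2 fold change 1.25, adjusted p = 0.119, with a range of 6.15e-04 to 0.119 over 13 alternatives). GAPB footprints were 125 and 139 CPM in the dark libraries and 929 and 908 CPM in blue light, a log2 fold change of 2.79 ± 0.08 (adjusted p = 5.21e-22). The 95% intervals of the footprint changes overlap, with 2.42 to 2.71 for GAPA and 2.63 to 2.95 for GAPB, and the difference between the subunits was not tested. GAPB mRNA had only 3 counts in each dark library and 14 and 13 in blue light, a ratio of 5.82 after scaling (95% counting interval 2.36 to 17.3). It did not pass (adjusted p = 0.105), but did with only genes averaging at least 10 CPM in the fit (adjusted p = 0.0429). With 3.80 and 3.52 CPM in the dark libraries, GAPB met that filter through blue light as well, so this pass adds no support. Over the alternatives that kept all libraries its adjusted p ranged from 0.0429 to 0.744.

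Regeneration starts with the aldolases, which join triose phosphates. FBA1 (AT2G21330) had the largest rise of the 10 in footprints, from 111 and 101 CPM in the dark libraries to 875 and 831 CPM in blue light, a log2 fold change of 3.01 ± 0.08 (adjusted p = 1.83e-22), or 8.06 times. Its mRNA was 16.5 and 34.1 CPM in the dark libraries and 239 and 230.1 CPM in blue light, a log2 fold change of 3.20 ± 0.33 (adjusted p = 8.31e-08). The dark mRNA libraries therefore differed by 2.07 times, well short of the difference between dark and blue light. FBA2 (AT4G38970) had more footprints than FBA1 per length, as given further on, with 540 and 510 footprint CPM in the dark libraries and 1894 and 1958 in blue light, a log2 fold change of 1.88 ± 0.07 (adjusted p = 1.91e-19). FBA2 mRNA was 41.8 and 91.6 CPM in the dark libraries and 361 and 355 CPM in blue light, a log2 fold change of 2.41 ± 0.30 (adjusted p = 1.82e-06).

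The bisphosphatases make steps that in practice run one way. Plastid FBPase (AT3G54050, listed as HCEF1), which acts on fructose bisphosphate, had 92.8 and 87.3 footprint CPM in the dark libraries and 230 and 225 in blue light, a log2 fold change of 1.34 ± 0.09 (adjusted p = 1.38e-13). Its mRNA was 20.3 and 27.0 CPM in the dark libraries and 46.4 and 53.6 CPM in blue light, without overlap, and did not pass (log2 fold change 1.07 ± 0.40, adjusted p = 0.174). SBPASE (AT3G55800), which acts on sedoheptulose bisphosphate, had 370.3 and 365 footprint CPM in the dark libraries and 612 and 597 in blue light, a log2 fold change of 0.72 ± 0.07 (adjusted p = 7.65e-10). Footprints of both enzymes rose, with the smaller value for SBPASE and 95% intervals of 0.58 to 0.86 for SBPASE and 1.16 to 1.51 for FBPase. SBPASE mRNA had 9 and 5 counts in the dark and 10 and 11 in blue light, and its log2 fold change of 0.94 ± 0.74 did not pass (adjusted p = 0.687).

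TKL1 (AT3G60750), the transketolase that moves carbon pairs between sugar phosphates, had the highest dark footprint level per length of the 10. Its footprints rose from 1206 and 1087 CPM to 1992 and 1912 CPM, a log2 fold change of 0.77 ± 0.07 (adjusted p = 1.16e-10). Its mRNA was 246 and 376 CPM in the dark libraries and 645 and 678 CPM in blue light, a log2 fold change of 1.09 ± 0.24 (adjusted p = 0.00380). The mRNA call was lost on leaving out either blue mRNA library or the first dark one (log2 fold change 1.15, 1.04 and 0.76, adjusted p = 0.0519, 0.114 and 0.0550, with a range of 3.17e-06 to 0.114 over 13 alternatives).

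PRK (AT1G32060), phosphoribulokinase, makes the acceptor that Rubisco uses. Its mRNA was 62.0 and 84.5 CPM in the dark libraries and 648 and 661 CPM in blue light, a log2 fold change of 3.15 ± 0.26 (adjusted p = 8.10e-10), or 8.89 times. Its footprints rose less, from 298 and 273 CPM to 1113 and 1152 CPM, a log2 fold change of 1.99 ± 0.07 (adjusted p = 1.93e-19), or 3.97 times. CP12-2 (AT3G62410), the partner that binds PRK and the dehydrogenase in darkness, had the lowest dark footprint level per length of the 10. Its footprints numbered 19 and 31 in the dark and 204 and 196 in blue light, or 6.14 and 9.09 against 44.9 and 57.1 CPM, a log2 fold change of 2.71 ± 0.20 (adjusted p = 2.64e-12). CP12-2 mRNA had 2 and 4 counts in the dark and 10 and 14 in blue light, a scaled ratio of 5.18 (95% counting interval 2.06 to 15.5), and did not pass (adjusted p = 0.200). Of the 4 genes whose mRNA did not pass, only plastid FBPase entered the test with at least 10 counts in a dark library.

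**Figure D2:**
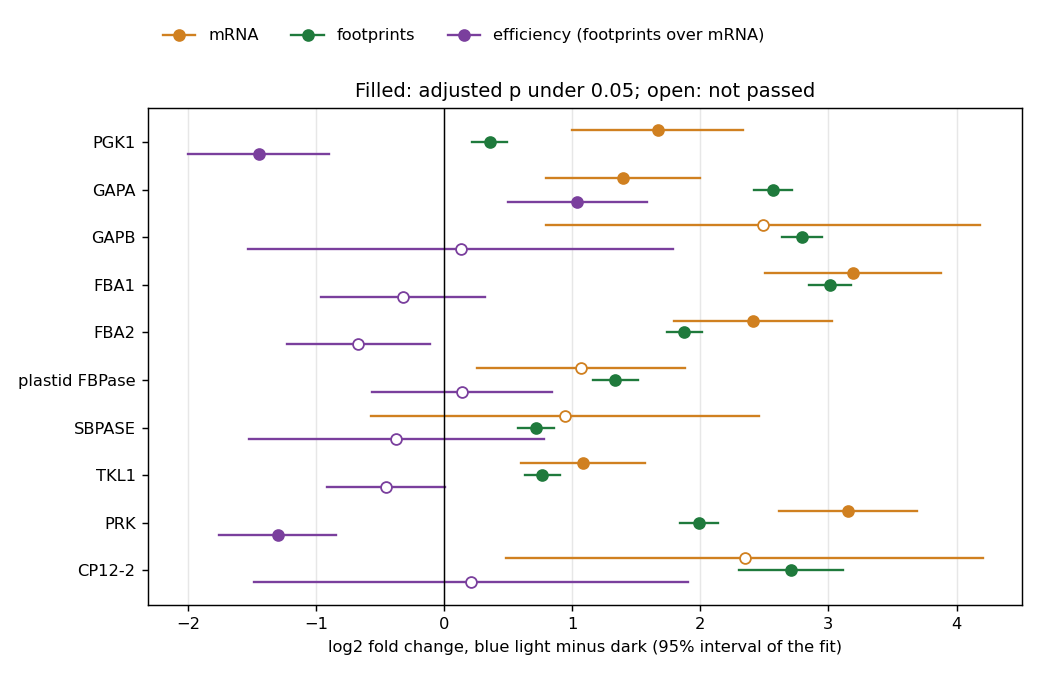
Fitted log2 fold change of blue light minus dark for each of the 10 genes in mRNA, footprints and efficiency, with 95% intervals of the fit over 2 libraries per group. Filled points passed at adjusted p under 0.05. Footprint points are filled for all 10 genes, and efficiency points are filled for GAPA to the right of 0 and for PRK and PGK1 to the left.

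The third comparison asked whether footprints and mRNA moved by the same amount, by fitting the light effect in footprints against that in mRNA in 1 model of 8 libraries. Efficiency changed in 3 of the 10 genes: it rose for GAPA and fell for PRK and PGK1. Among all 6169 genes tested, 10.1% were called, 5.2% higher and 4.93% lower. Efficiency levels below are the log2 ratio of footprint to mRNA CPM for libraries with the same replicate number, with 0.5 CPM added to each. For them and for the fit all 8 libraries were scaled together over the genes that passed in both assays, so they do not follow from the CPM above, which were scaled within each assay. By this scaling the efficiency changes of the 10 genes lie 0.13 to 0.17 log2 units below the footprint change minus the mRNA change, with no change of sign. The fit also used 1 spread for both assays (common edgeR dispersion 0.00442, beside 0.0522 for mRNA alone and 0.00226 for footprints alone). For each of the 10 genes, called or not, the SE of efficiency is below that of the mRNA change, so efficiency intervals and p-values are likely too narrow.

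For PGK1 the level was 3.33 and 2.94 in the dark and 1.62 and 1.73 in blue light. Its change was -1.45 ± 0.27 (adjusted p = 7.46e-04). PRK had levels of 1.65 and 1.15 in the dark and 0.079 and 0.094 in blue light, with a change of -1.30 ± 0.22 (adjusted p = 3.11e-04). In both genes the mRNA rose by more than the footprints, the groups did not overlap, and the call was kept under all 19 alternatives (adjusted p from 1.28e-07 to 0.0103 for PGK1 and from 1.40e-10 to 0.0157 for PRK). GAPA had levels of 1.5 and 1.74 in the dark and 2.78 and 2.53 in blue light, with a change of 1.04 ± 0.26 (adjusted p = 0.0105). Its footprints rose by more than its mRNA. Efficiency levels of dark and blue light did not overlap for GAPA either, nor for FBA2 and TKL1, which were not called. The share of all genes without such overlap was not taken. The GAPA call was lost when any of 5 libraries was left out, blue or dark mRNA replicate 1, blue footprint replicate 1 or 2 or dark footprint replicate 2, with changes from 0.91 to 1.06 there and adjusted p from 1.54e-04 to 0.0791 over 19 alternatives.

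The other 7 genes did not pass. Values were -0.67 ± 0.27 for FBA2 (95% interval -1.23 to -0.11, adjusted p = 0.123) and -0.45 ± 0.22 for TKL1 (-0.91 to 0.0035, adjusted p = 0.209). Without dark mRNA replicate 2 these became -1.36 and -0.80 and passed (adjusted p = 0.00341 and 0.0102), and over 19 alternatives their adjusted p ranged from 0.00341 to 0.655 and from 0.0102 to 0.656. FBA1 stood at -0.32 (-0.96 to 0.32), SBPASE at -0.37 (-1.52 to 0.78), plastid FBPase at 0.14 (-0.57 to 0.84), GAPB at 0.13 (-1.53 to 1.79) and CP12-2 at 0.21 (-1.48 to 1.91). Changes of 1 log2 unit in efficiency therefore lie within the intervals of FBA2, SBPASE, GAPB and CP12-2. The median of the 10 was -0.35 beside -0.06 over all genes tested, and -0.019 without dark mRNA replicate 1. GAPB, SBPASE and CP12-2 entered the efficiency fit through their blue-light mRNA, which favours a higher mRNA fold and so a lower efficiency change. No median was taken without them.

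Reads of mRNA were not spread evenly along the coding sequences of FBA1 and FBA2, as shorter models of these genes show. FBA1 has a shorter model of 302 codons against the 390 of the longest, and this model held 82.1%, 81.6%, 79.8% and 86.1% of the longest model's footprints in the 4 libraries. Of the mRNA reads it held 17.6% and 24.1% in blue light and 0 of 13 and 6 of 29 in the dark. A shorter FBA2 model, of 372 against 389 codons, held all mRNA reads of the longest model in each library but 95.1% to 95.9% of its footprints. The other models of TKL1 and plastid FBPase are as long or nearly as long as the one used, and the remaining 6 genes have 1 model each, so this could not be looked at there. Levels of mRNA and efficiency are not ranked between genes here. Folds of one gene between dark and blue light do not need even coverage, but they need the same unevenness in both conditions, which was not tested.

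Per length, in footprint CPM per 100 codons, the order of the 10 genes changed between conditions. In the dark TKL1 came first at 157, followed by FBA2 at 135, PGK1 at 102, SBPASE at 95.8, GAPA at 74.8 and PRK at 74.0. GAPB at 30.2, FBA1 at 27.2, plastid FBPase at 22.1 and CP12-2 at 6.24 had the lowest dark levels. Only GAPA and PRK overlapped with their neighbour in this order, with libraries from 71.9 to 77.8 and from 70.6 to 77.3.

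In blue light FBA2 came first at 495 footprint CPM per 100 codons and GAPA second at 444. PRK followed at 293, TKL1 at 267, FBA1 at 219, GAPB at 209.8, SBPASE at 157 and PGK1 at 130.2, with plastid FBPase at 55.7 and CP12-2 at 41.8. No neighbours in this order overlapped, although FBA1 (213 to 224) and GAPB (207 to 212) came close. The highest level was 25.1 times the lowest in the dark and 11.8 times in blue light. PGK1 and SBPASE, next after FBA2 in the dark, stood below GAPB and FBA1 in blue light.

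**Figure D3:**
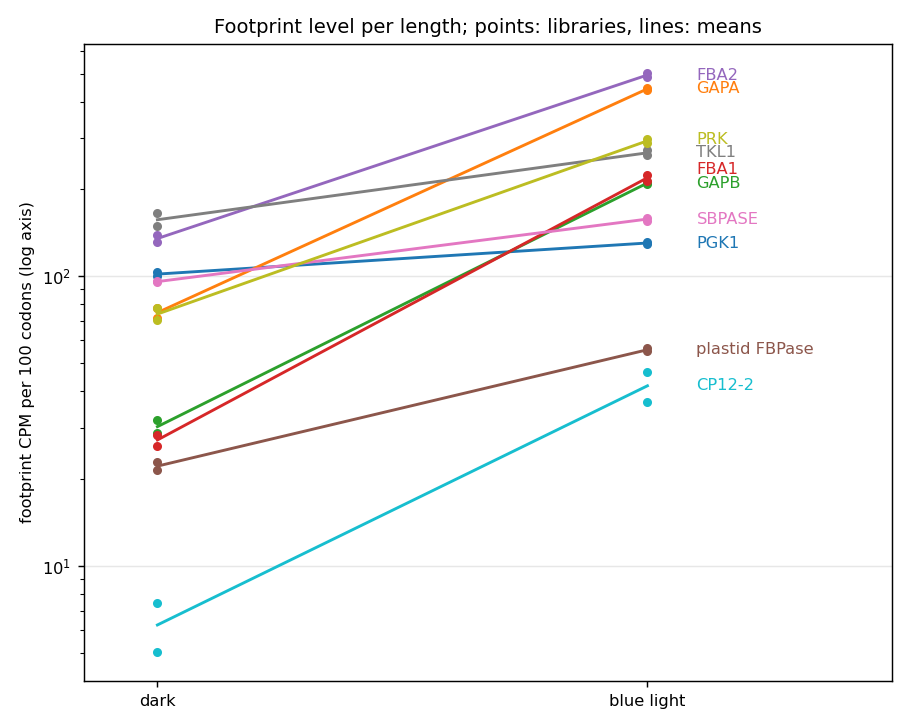
Footprint CPM per 100 codons on a log axis for the 10 genes, with points for the 2 libraries of each condition and lines joining the means. Lines of FBA1, GAPB, GAPA and PRK cross those of SBPASE and PGK1, which rise least.

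Ratios between partners kept their side of 1 in every library. FBA2 footprints per length were 4.89 and 5.04 times those of FBA1 in darkness and 2.17 and 2.36 times under blue light, without overlap. GAPA stood at 2.72 and 2.26 times GAPB in the dark and at 2.07 and 2.16 times in blue light. SBPASE stood at 4.24 and 4.44 times plastid FBPase in the dark and at 2.83 and 2.82 times in blue light.

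Another 10 plastid genes of the cycle, relatives of the genes above and the steps not among them, were also read. In footprints 7 of the 9 tested rose and 1 fell, beside 20.9% and 16.9% of all genes, with a median log2 fold change of 0.77. In mRNA 3 of 9 rose, beside 2.85% of all genes, with a median of 0.36. CP12-1 (AT2G47400), the second CP12 gene, rose by 1.62 ± 0.09 in footprints (adjusted p = 5.75e-15) and by 2.56 ± 0.45 in mRNA (adjusted p = 3.24e-04). It had 119 and 146 footprint CPM in the dark libraries and 380 and 440.2 in blue light. Per length CP12-1 footprints were 20.6 and 17.0 times those of CP12-2 in the dark and 8.97 and 8.18 times in blue light. CP12-1 thus had the higher ribosome occupancy per length of the 2 in each footprint library.

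RPE (AT5G61410), the ribulose phosphate epimerase, rose by 1.61 ± 0.09 in footprints and 1.91 ± 0.44 in mRNA, and RPI3 (AT3G04790, listed as EMB3119), the ribose phosphate isomerase, by 0.77 ± 0.09 and 1.55 ± 0.32. Their mRNA calls (adjusted p = 0.00696 and 0.00249) were lost without blue mRNA replicate 1, that of RPE also with DESeq2 (adjusted p = 0.0503), with ranges of 0.00437 to 0.101 and 7.90e-04 to 0.0747 over 13 alternatives. Plastid TPI (AT2G21170, listed as TIM), the triose phosphate isomerase, rose by 1.14 ± 0.08 in footprints (adjusted p = 2.96e-12), from 127 and 135 to 272 and 309 CPM, while its mRNA was 182 and 198 CPM in the dark and 209 and 218 in blue light (log2 fold change 0.16 ± 0.25, adjusted p = 0.889). TPI efficiency rose by 0.85 ± 0.19 (adjusted p = 0.00402), a call lost with a block for libraries of the same condition and replicate number (adjusted p = 0.0767, with a range of 9.76e-04 to 0.0767 over 19 alternatives). RPI3 efficiency was called lower at -0.92 ± 0.27 (adjusted p = 0.0272), and this call was lost under 11 of 19 alternatives (adjusted p from 0.0114 to 0.161).

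GAPA2 (AT1G12900), a close relative of GAPA, rose by 1.91 ± 0.08 in footprints (adjusted p = 3.69e-18). Per length GAPA stood at 2.38 and 2.26 times GAPA2 in the dark and at 3.57 and 3.78 times in blue light. PGK2 (AT1G56190) rose by 0.63 ± 0.09 in footprints (adjusted p = 2.27e-06), and its mRNA value was -0.41 ± 0.41 (adjusted p = 0.795). FBA3 (AT2G01140, listed as PDE345) rose by 0.50 ± 0.08 in footprints (adjusted p = 6.90e-06), and its mRNA value was 0.36 ± 0.27 (adjusted p = 0.673). TKL2 (AT2G45290) did not pass in footprints (0.21 ± 0.13, adjusted p = 0.221) or mRNA, and TKL1 exceeded it by 32.2 to 33.9 times per length in dark footprints and 46.9 to 50.3 times in blue light. A second plastid FBPase (AT5G64380) fell by 1.45 ± 0.26 in footprints (adjusted p = 3.35e-05), with 45 and 47 counts in the dark libraries and 25 and 16 in the deeper blue-light libraries. CP12-3 (AT1G76560) had too few counts to be tested, with 6 to 11 per footprint library. Close relatives can share reads: the duplicated chloroplast genes ATCG00860 and ATCG01280 had equal counts in 7 of 8 libraries and differed by 1 in the other, so a read with several matches seems to count at every one, and the values of GAPA and GAPA2, of PGK1 and PGK2, and of the aldolases may include some of each other's reads.

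Of 9 genes of the thioredoxin system 2 rose in footprints and 7 did not pass, a share close to the 20.9% of all genes called higher. TRXF1 (AT3G02730), a thioredoxin that activates cycle enzymes, rose by 1.24 ± 0.14 in footprints, from 33.3 and 22.9 to 65.2 and 66.4 CPM (adjusted p = 2.92e-08), while its relative TRXF2 (AT5G16400) had 36.2 and 36.3 CPM in the dark and 36.8 and 34.4 in blue light (-0.02 ± 0.14, adjusted p = 0.913). NTRC (AT2G41680), a thioredoxin reductase fused to a thioredoxin, rose by 0.90 ± 0.13 (adjusted p = 1.06e-06). Only 3 of these genes could be tested in mRNA and none passed, with 1 at an unadjusted p under 0.05, beside 13.4% of all genes.

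Of 5 genes for triose phosphate export and starch synthesis 2 rose in footprints, beside 20.9% of all genes, with a median of 0.15. None was called in mRNA by edgeR, where 3 had an unadjusted p under 0.05, beside 13.4% of all genes. Among the 3 was APL1, which had under 10 counts in both dark libraries and so passed the filter through blue light. TPT (AT5G46110, listed as APE2), which exports triose phosphate to the cytosol, rose by 1.0 ± 0.07 in footprints (adjusted p = 3.72e-12), and APL1 (AT5G19220), a large subunit of ADP-glucose pyrophosphorylase, by 1.08 ± 0.10 (adjusted p = 4.30e-10). Efficiency was called lower for PGM (AT5G51820), the plastid phosphoglucomutase, at -1.62 ± 0.48, and for ADG1 (AT5G48300), the small subunit of the pyrophosphorylase, at -1.46 ± 0.41 (adjusted p = 0.0287 and 0.0226). These calls were lost under 8 and 7 of 19 alternatives (adjusted p from 0.0109 to 0.196 and from 0.00225 to 0.415). Their footprint values were 0.15 ± 0.10 and -0.14 ± 0.08, and neither passed.

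Of 10 cytosolic counterparts, which serve glycolysis and sucrose synthesis, 6 rose and 1 fell in footprints, beside 20.9% and 16.9% of all genes, with a median of 0.20. None of the 7 tested in mRNA passed in edgeR, where 2 had an unadjusted p under 0.05, beside 13.4% of all genes. GAPC1 (AT3G04120), the cytosolic dehydrogenase, had 1511 and 1517 footprint CPM in the dark libraries and 1660.5 and 1638 in blue light (0.12 ± 0.06, adjusted p = 0.124). PGK3 (AT1G79550, listed as PGK) and cytosolic FBPase (AT1G43670, listed as FBP) rose by 0.23 ± 0.07 and 0.31 ± 0.10 in footprints. Cytosolic TPI (AT3G55440) fell by 0.24 ± 0.07 in footprints (adjusted p = 0.00628), and its efficiency was called lower at -1.29 ± 0.30 (adjusted p = 0.00585), a call lost on leaving out mRNA replicate 2 of blue light or 1 of dark (adjusted p from 1.62e-04 to 0.12 over 19 alternatives). FBA5 (AT4G26530), an aldolase, had 2 and 0 footprint counts in the dark and 28 and 29 in blue light, a scaled ratio of 23.2 (95% counting interval 6.15 to 197). It passed the filter through the blue-light libraries, so it had to be higher there, and its call (adjusted p = 1.19e-06) is 1 of the 6. FBA7 (AT4G26520) rose by 1.06 ± 0.33 (adjusted p = 0.0109) from 11 and 12 to 34 and 25 counts. The calls of GAPC2, FBA6, FBA7, PGK3, cytosolic FBPase and cytosolic TPI were lost without at least 1 of the 4 footprint libraries. Those of GAPC2, FBA6, FBA7 and cytosolic FBPase were also lost with the DESeq2 Wald test on all libraries (adjusted p = 0.0531, 0.11, 0.207 and 0.153).

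**Figure D4:**
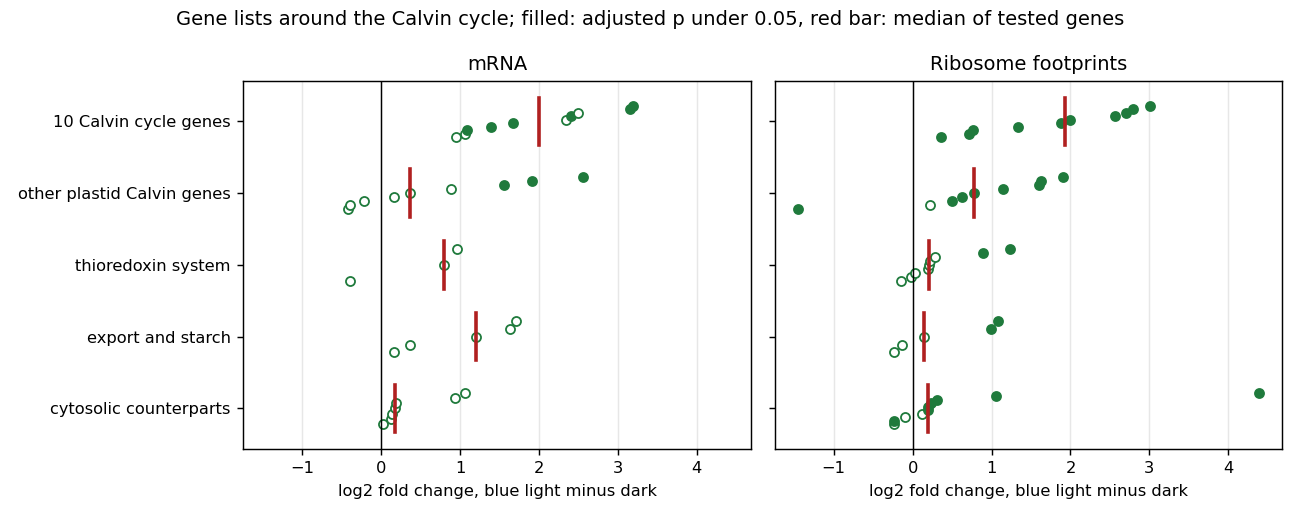
Fitted log2 fold change of blue light minus dark in mRNA (left) and footprints (right) for each tested gene of 5 lists, filled where adjusted p was under 0.05, with red bars at the median of the tested genes. In footprints the medians are 1.93 for the 10 genes, 0.77 for the other plastid genes of the cycle, 0.21 for the thioredoxin system, 0.15 for export and starch and 0.20 for the cytosolic counterparts.

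Among 141 other named nuclear loci averaging 100 counts or more in each assay, 5 were closest to the mean profile of the 7 cycle genes with at least 10 counts in every library. Likeness was the Euclidean distance of log2 CPM over 8 libraries, centred within each assay. CRD1 (AT3G56940), a cyclase of chlorophyll synthesis, was closest at 0.31, with log2 fold changes of 2.15 in mRNA and 1.88 in footprints. CAT2 (AT4G35090), a catalase, followed at 0.40, with 1.90 and 1.46. LHCB4.2 (AT3G08940) and LHCB4.1 (AT5G01530), antenna proteins of photosystem II, stood at 0.42 and 0.45, and VAR1 (AT5G42270), a thylakoid protease subunit, at 0.50. The median distance of the 7 genes themselves to their mean profile was 1.23; the 5 were chosen for their small distances.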

How the data were processed

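The deposited files hold raw read counts per transcript model, 1 file per library, without normalization. Per the submitters' processing notes, CASAVA 1.8, Bowtie2 2.1.0, TopHat2 2.0.9 and build TAIR10 were used; the counting tool is not given in the sources used here. Another deposited column, identical in all files and of no stated unit (classed as other), resembles the coding length in codons; it chose the longest model per locus and gave levels per length. Symbols came from a RefSeq table for TAIR10.1, whose coordinates were not used. Blue light was compared with dark in 4 mRNA libraries, in 4 footprint libraries, and for efficiency in 1 model of all 8 with an assay by light term, with edgeR 4.0.16 in R 4.3.3 (TMM, filterByExpr at a minimum count of 10, two-sided quasi-likelihood F-test), with a spread of its own for each assay and 1 shared spread for efficiency. CPM use TMM library sizes over the genes tested in each assay, and efficiency TMM over all 8 libraries. The SE is the absolute log2 fold change over the square root of F. The steps were tested on simulated data in which fewer genes changed than were called here. In footprints 98 changed genes of each size were tested, and in efficiency 83 and 88, beside 5975 and 625 called in the data. The shares below hold for that setting, and how they shift with more changed genes was not tested. A change of 1 log2 unit was recovered for 11.8% of changed genes in mRNA, 72.4% in footprints and 8.43% in efficiency. For 2 log2 units the shares were 65.8%, 99% and 52.3%. A gene that did not pass in mRNA or efficiency may therefore still have changed. The 10 genes, the gene lists and the naming rule (all genes of the cycle, up to 4 called genes per further list, and the 5 closest profiles) were chosen with earlier results of these data known. TRXF2, GAPC1, PGK3, GAPC2 and FBA6 fall outside this rule and were named after their values were seen. Counting intervals are exact (Clopper-Pearson) at 95% and cover counting error only. Alternatives were DESeq2 1.42.0 size factors and Wald test, limma-voom 3.58.1, other filters, nuclear genes, another model per locus, replicate blocks and leaving out each library.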

Additional observations from a re-analysis of the deposited data

How the results depend on the processing

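All 10 genes stayed called higher in footprints under each of 13 alternatives. In mRNA 4 to 6 of them were called when a library was left out (median 1.69 to 2.16) and 6 or 7 otherwise. The 7th was GAPB, which met the filter of at least 10 CPM through its blue-light libraries. With nuclear genes only and without the 3 abundant loci, SBPASE and CP12-2 did not pass the filter in mRNA, which left 8 genes tested there and in efficiency. In efficiency, with a library left out, 0 to 1 were called higher and 2 to 4 lower, with a median from -0.56 to -0.019, and under the other 11 alternatives 1 and 2. Genes called in all were 5975 in footprints, 3264 with the DESeq2 Wald test, and 625 in efficiency, 329 to 643 with a library left out; the cause was not tested. Voom with a weight per assay, which gives mRNA and footprints spreads of their own, called 465 in efficiency. Of 446 values of the 10 genes under alternatives, none with a call was reversed, 9 lost and 3 gained a call. Efficiency changes without a call did change sign for SBPASE (-0.87 to 0.041), FBA1 (-0.96 to 0.12), plastid FBPase (-0.095 to 0.36) and CP12-2 (-0.32 to 0.64). Correlations of replicate differences between same-numbered libraries lay from -0.093 to 0.054 over 707 genes. With 1 difference per group, and counting error in each, this cannot tell whether such libraries share plants or a batch. The replicate block called 285 genes in mRNA, 6003 in footprints and 489 in efficiency, and 441 as a block within condition, and changed no call of the 10. Of the other named genes, plastid TPI and RPI3 lost their efficiency calls with the block within condition. Under 10 mRNA counts in each dark library limit what can be said of GAPB, SBPASE and CP12-2. The blue minus dark difference of the mean efficiency levels kept its direction for GAPA, PRK and PGK1 with 0.1 or 2 CPM added, while that of GAPB went from 0.21 to 0.43 with 2 CPM added, beside a fitted change of 0.13.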
